A study of Homo sapiens with 8 samples.

Results

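The genes described here are 45 genes that cells switch on for G2 and mitosis: cyclins and their kinase, the CDC25 phosphatases, mitotic kinases, the spindle checkpoint, kinetochore and chromosomal passenger proteins, kinesins, and the machinery of anaphase and cytokinesis. They were listed by known role, with earlier results of these data known. Each was found in the array table by its gene symbol, and where a symbol had several rows the row with the highest mean over all arrays was taken. This applied to AURKA, MAD2L1, CENPA and BIRC5. The rows of AURKA and MAD2L1 disagree in some comparisons, and those of BIRC5 disagree in the size of a difference. All 45 were found, among 17881 transcript clusters (groups of exon probes read out as 1 value per array). A cluster is not always 1 gene, so shares of all clusters are not shares of genes. The rows of BUB1B, KIF20A, KIF23 and KIF4A carry a second symbol (PAK6, CDC23, KIF23-AS1 and KIF4B), so the signal of the named gene cannot be separated from that of the second, and KIF4B is a near-identical copy of KIF4A.

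The study used RS4;11, an established human line of B-precursor acute lymphoblastic leukaemia with a rearranged KMT2A (MLL) gene, and asked how BTG1, an antiproliferative gene, bears on the response to glucocorticoid. Cells carried either a control shRNA vector or an shRNA against BTG1, and each line received vehicle or prednisolone for 8 h, prednisolone being a glucocorticoid whose dose is not given in the sources used here. There were 2 arrays for each of the 4 combinations, 8 in all. Whether duplicates were separate cultures is not stated in the labels. The p-values therefore cover only array-to-array spread, possibly technical, and the small number of arrays limits the precision.

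The arrays labelled BTG1 shRNA had lower values of the B-lineage markers than the control arrays, and higher values of most T-lineage markers. CD79A, a signalling chain of the B-cell receptor, lay between 9.89 and 10.15 log2 units on the 4 control arrays and between 4.83 and 4.92 on the 4 arrays labelled BTG1 shRNA. CD3D, a chain of the T-cell receptor complex, lay between 3.24 and 3.42 on control arrays and between 10.97 and 11.49 on the arrays labelled BTG1 shRNA. With vehicle, 8 of 8 B-lineage markers were lower at an adjusted p under 0.05 in limma (against 6.21% of all clusters). Of 9 T-lineage markers, 8 were higher at that threshold (88.9%, against 8.46%). CD2 stayed between 2.83 and 3.16 on every array. With prednisolone 7 of 8 B-lineage markers passed as lower (87.5%, against 7.51%) and 8 of 9 T-lineage markers as higher (88.9%, against 10.0%). The smallest B-lineage difference there was -0.86, for BLNK. BTG1 itself, on a row shared with LINC01619, fell by 2.06 (SE 0.20) with vehicle and by 2.64 (SE 0.20) with prednisolone, and NR3C1, the glucocorticoid receptor, by 2.53 (SE 0.28) and 3.51 (SE 0.28). The shRNA and the lineage of the cells cannot be told apart in any comparison between the arrays labelled BTG1 shRNA and the control arrays. Within each background, CD79A and CD3D stayed in those ranges with vehicle and with prednisolone, but not every marker was as steady. With prednisolone in control cells, 6 of 8 B-lineage markers had a negative difference, the lowest being -1.59 for CD22. All 9 T-lineage markers did, the lowest being -1.20 for LCK. In limma 2 B-lineage markers and 1 T-lineage marker passed as lower there (against 0.587% of all clusters). None of either list passed with prednisolone on the arrays labelled BTG1 shRNA.

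As background, entry into mitosis depends on CDK1 bound to cyclin A or B, which WEE1-family kinases hold inactive and CDC25 phosphatases release. Most of the genes that act from then on share a transcriptional programme. The MuvB core, with B-MYB and FOXM1, activates their promoters late in the cycle through the cell-cycle genes homology region (CHR). Many of the promoters also hold a CCAAT box. The DREAM complex represses these genes in resting cells. Their messages therefore tend to move together with the share of a culture that is in G2 or M, and glucocorticoids are known to halt lymphoid leukaemia cells in G1. In bulk RNA, fewer cells in G2 or M and less RNA per such cell cannot be told apart.

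The range of a gene over the 8 arrays had a median of 1.45 log2 units, against 1.01 over all clusters. It was under 1 unit for 13 of the 45 and over 2 units for 11. The steadiest were INCENP, the scaffold of the chromosomal passenger complex (range 0.404), BIRC5, or survivin, its partner (0.494), the kinase PLK1 (0.539), the anaphase activator CDC20 (0.545) and CENPA, the centromeric histone (0.573). The most variable were MAD2L1, a checkpoint protein (3.19), HMMR, a spindle-associated protein (2.89), ANLN, or anillin, a scaffold of the cleavage furrow (2.88), CENPE, a kinetochore motor (2.77) and ECT2, the exchange factor that starts furrowing (2.73). BIRC5, CENPA and MAD2L1 each have another row, and their ranges here are those of the row taken.

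**Figure D1:**
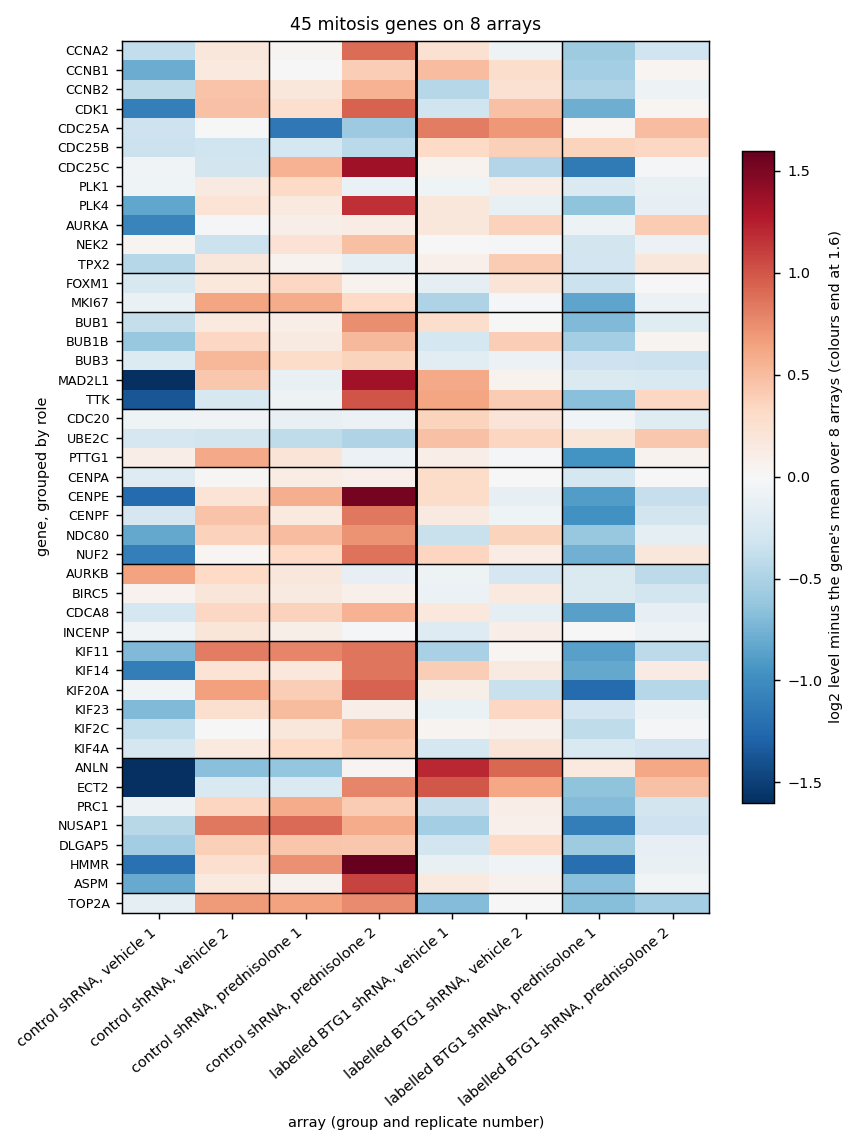
Heat map of the 45 genes (rows, grouped by role) on the 8 arrays (columns), coloured by the log2 value minus the mean of that gene over all arrays. Colour differs between the 2 arrays of a group as well as between groups: 23 genes have their highest value on control prednisolone array 2, and 34 their lowest on control vehicle array 1 or BTG1 shRNA prednisolone array 1.

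The arrays of a group differed from each other, in 2 of the 4 groups mostly in 1 direction. Of the 45 genes, 4 were higher on array 1 than on array 2 of the control vehicle pair and 8 in the BTG1 shRNA prednisolone pair, against 15 in the control prednisolone pair and 23 in the BTG1 shRNA vehicle pair. The lowest value of a gene fell on control vehicle array 1 for 16 genes and on BTG1 shRNA prednisolone array 1 for 18. The absolute difference between the arrays of a group had a median of 0.726 for the 45 genes in the control vehicle pair (0.441 over all clusters), 0.320 in the control prednisolone pair (0.213), 0.302 in the BTG1 shRNA vehicle pair (0.185) and 0.462 in the BTG1 shRNA prednisolone pair (0.245). The width of the value distribution moved with this. The interquartile range over all clusters was 2.95 on control vehicle array 1 and 3.39 on BTG1 shRNA prednisolone array 1, against 3.45 to 3.80 on the other 6 arrays, and in each of the 4 groups the narrower array had the lower median of the 45 genes. The part of array width in the differences below was not tested.

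**Figure D2:**
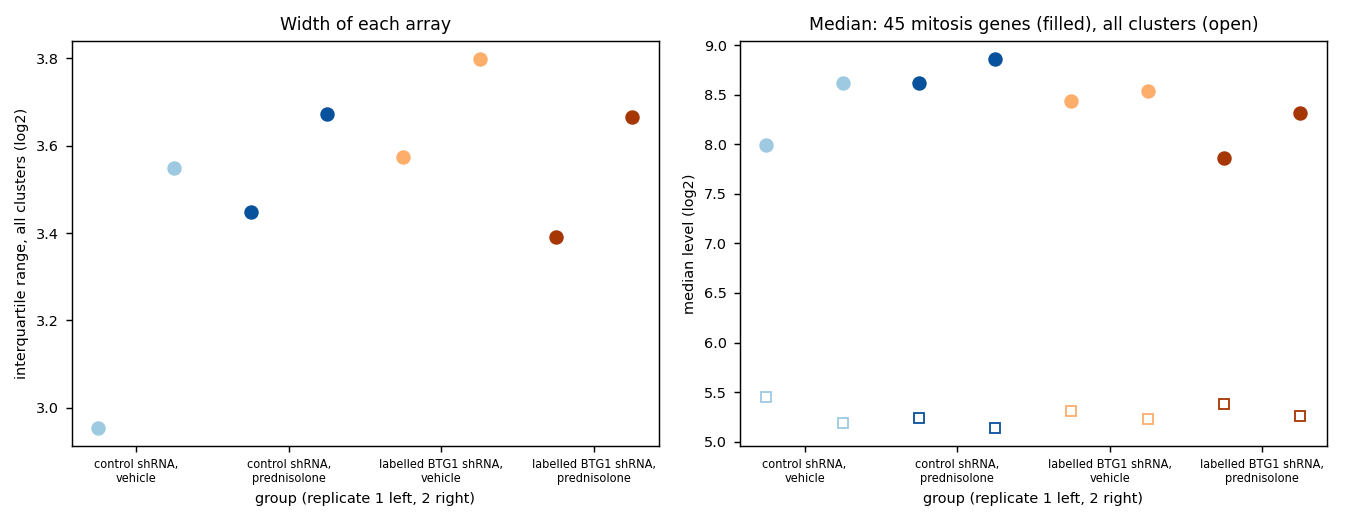
Interquartile range of all 17881 clusters per array (one panel), and per array the median of the 45 genes (filled) and of all clusters (open), in log2 units. The median of the 45 genes runs from 7.86 on BTG1 shRNA prednisolone array 1 and 7.99 on control vehicle array 1 to 8.86 on control prednisolone array 2.

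In cells with the control shRNA, the G2 and mitosis genes had higher mean values with prednisolone than with vehicle: the difference was positive for 37 of 45, with a median of 0.51 log2 units, while over all clusters it was positive for 33.7% with a median of -0.16. None of the 45 passed the test in limma (adjusted p under 0.05 over all clusters), where 1.52% of all clusters did, and 8 had an unadjusted p under 0.05, against 14.1% of all clusters. The 2 prednisolone arrays lay above both vehicle arrays for 16 genes (35.6%, against 15.3% of all clusters) and below both for 4 (8.89%, against 26.4%). The study selected genes by a change over 2-fold: 7 of the 45 exceeded it upward (15.6%, against 3.86%) and 0 downward (against 1.39%). The 7 were CENPE, HMMR, MAD2L1, TTK, ECT2, CDC25C and NUF2. With all rows of a symbol averaged, which among these affects MAD2L1, 6 genes exceeded it upward.

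CENPE measured 4.66 and 6.12 with vehicle in control cells and 6.48 and 7.43 with prednisolone. Both prednisolone arrays were above both vehicle arrays, but the gap within the vehicle pair was wider than that between the nearest arrays of the groups (6.12 and 6.48). Its difference was 1.56 (SE 0.51, 95% interval 0.38 to 2.75, adjusted p = 0.233 in limma). HMMR measured 5.98 and 7.44 with vehicle and 7.91 and 8.86 with prednisolone, a difference of 1.68 (SE 0.55, adjusted p = 0.241 in limma). CDC25C, a phosphatase that activates CDK1, measured 6.15 and 5.92 with vehicle and 6.77 and 7.57 with prednisolone, a difference of 1.14 (SE 0.42, adjusted p = 0.289 in limma). In all 3 genes the groups did not overlap and the difference did not pass the threshold. Its relative CDC25A, which acts on CDK2 and CDK1 and works in the G1/S transition as well, went the other way: it measured 7.50 and 7.83 with vehicle and 6.68 and 7.25 with prednisolone. That difference of -0.70 (SE 0.26, adjusted p = 0.299 in limma) was the lowest of the 45.

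The core regulators gave smaller values in the control cells. CDK1 measured 6.59 and 8.15 with vehicle and 7.95 and 8.62 with prednisolone, and CCNB1, the gene of cyclin B1, 9.49 and 10.45 against 10.28 and 10.68. In both genes the groups overlapped because the second vehicle array was high. The differences were 0.92 (SE 0.55) for CDK1 and 0.52 (SE 0.35) for CCNB1. PLK1, a kinase needed for spindle assembly, measured 10.23 and 10.44 with vehicle and 10.61 and 10.19 with prednisolone, a difference of 0.06 whose 95% interval ran from -0.41 to 0.54. FOXM1 differed by 0.23, MKI67, the gene of the proliferation marker Ki-67, by 0.19, the checkpoint kinase BUB1B by 0.46, the spindle-pole kinase AURKA by 0.65 and the topoisomerase TOP2A, which untangles sister chromatids, by 0.44. AURKB, the kinase of the passenger complex, differed by -0.46 (SE 0.21).

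By role, the median difference with prednisolone in control cells was 0.88 for the 7 genes of spindle organisation and cytokinesis, 0.84 for the 5 centromere and kinetochore genes, 0.54 for the 5 checkpoint genes, 0.53 for the 6 kinesins and 0.51 for the 12 genes of mitotic entry. It was -0.02 for the 4 genes of the passenger complex and -0.16 for CDC20, UBE2C and PTTG1, which act in anaphase proteolysis.

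These values leaned on control vehicle array 1. Without it, the difference was positive for 30 of 45 genes with a median of 0.057 (all clusters -0.025), 1 gene exceeded 2-fold, and CENPE gave 0.83 and HMMR 0.94. Without control vehicle array 2, 39 were positive with a median of 0.80 and 16 exceeded 2-fold. CENPE then gave 2.29 and the spindle motor KIF11 1.52. With control prednisolone array 2 left out, 40 were positive with a median of 0.37 and 2 exceeded 2-fold; with control prednisolone array 1 left out, 35 were positive, the median was 0.63 and 13 exceeded 2-fold.

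On the arrays labelled BTG1 shRNA, the same genes had lower mean values with prednisolone than with vehicle. The difference was negative for 44 of 45, with a median of -0.38 log2 units, while over all clusters it was negative for 41.9% with a median of 0.03. It ran from -0.88 for ECT2 to 0.01 for INCENP, the 1 gene above 0. None of the 45 passed the test in limma, and of all clusters 0.0% did; 1 of the 45, CDC20, had an unadjusted p under 0.05, against 1.04% of all clusters. Both prednisolone arrays lay below both vehicle arrays for 21 genes (46.7%, against 10.5% of all clusters) and above both for 0 (against 18.0%). None differed by over 2-fold, upward (0.14% of all clusters) or downward (0.0727%), but 7 did so downward without BTG1 shRNA prednisolone array 2 and 1 without BTG1 shRNA vehicle array 2.

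CDC20, which activates the anaphase-promoting complex, measured 10.67 and 10.51 with vehicle and 10.27 and 10.12 with prednisolone on the arrays labelled BTG1 shRNA. The groups did not overlap, and the difference was -0.40 (SE 0.17, 95% interval -0.78 to -0.01). KIF20A, a kinesin of the central spindle, measured 8.31 and 7.87 with vehicle and 6.99 and 7.76 with prednisolone, a difference of -0.71 (SE 0.36). BUB1, a checkpoint kinase, measured 9.32 and 9.03 with vehicle and 8.33 and 8.85 with prednisolone, a difference of -0.58 (SE 0.30). In both, prednisolone array 1 was the lowest of the 4. CDC25A measured 8.65 and 8.52 with vehicle and 7.86 and 8.32 with prednisolone, a difference of -0.50 (SE 0.26). Among the core regulators the difference was -0.45 for CDK1, -0.65 for CCNB1, -0.20 for PLK1, -0.11 for AURKA, -0.15 for AURKB, -0.31 for BUB1B, -0.20 for FOXM1, -0.21 for MKI67 and -0.25 for TOP2A.

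By role the medians lay closer together than in the control cells: -0.56 for the checkpoint genes, -0.53 for the centromere and kinetochore genes, -0.49 for spindle organisation and cytokinesis, -0.40 for CDC20, UBE2C and PTTG1, -0.35 for the kinesins, -0.34 for mitotic entry and -0.23 for the passenger complex. Without BTG1 shRNA prednisolone array 1, 39 genes were below 0 and the median was -0.16. Without BTG1 shRNA vehicle array 2, 38 were below 0 with a median of -0.25. With either of the other 2 arrays left out, the median was -0.60 and -0.44.

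Set side by side, 37 of the 45 genes had a positive difference in control cells and a negative one on the arrays labelled BTG1 shRNA, 7 were negative in both, and INCENP had the reverse pattern. For 7 genes (ANLN, CENPA, CENPE, ECT2, KIF2C, NEK2 and TTK) the arrays did not overlap in either pair, upward in control cells and downward on the arrays labelled BTG1 shRNA. That pattern held for 2.17% of all clusters. CDC25A and CDC20 were the pair of genes whose prednisolone arrays lay below both vehicle arrays in both backgrounds, a pattern that held for 2.29% of all clusters.

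The difference between the prednisolone effects was tested as an interaction. It was negative for 40 of 45, against 34.8% of all clusters, with a median of -0.83 (all clusters 0.20), and 20 of the 45 exceeded 1 log2 unit downward (44.4%, against 6.99% of all clusters). None passed the test in limma, against 0.134% of all clusters, and 12 had an unadjusted p under 0.05, against 9.31%. CENPE gave -2.28 (SE 0.72, 95% interval -3.95 to -0.60, adjusted p = 0.448 in limma), HMMR -2.24 (SE 0.78), TTK, the checkpoint kinase MPS1, -1.96 (SE 0.72) and ANLN -1.56 (SE 0.53). The highest was AURKB with 0.31. The groups of 2 arrays leave wide intervals, as that of CENPE shows. Without control vehicle array 1 the median of the 45 was -0.45 and 7 exceeded 1 unit downward; over the other single arrays left out it stayed between -1.27 and -0.65.

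**Figure D3:**
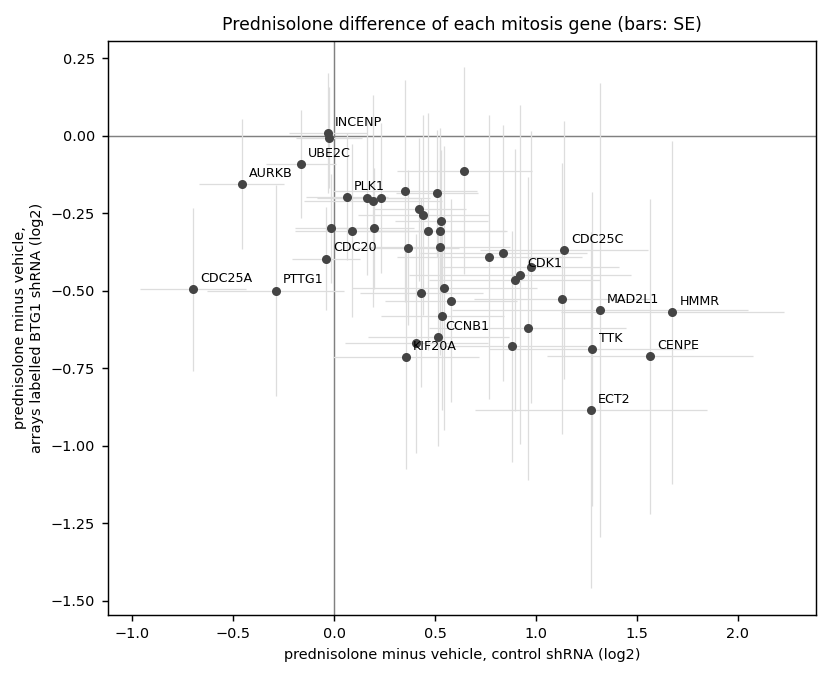
Each of the 45 genes by its prednisolone minus vehicle difference (log2) in control cells (x) and on the arrays labelled BTG1 shRNA (y), with bars of 1 SE. Of the 45 points, 37 lie right of 0 on x and below 0 on y, CENPE and HMMR farthest to the right, and the bars are wide against the distances from 0.

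Averaged over both backgrounds, prednisolone left a median of 0.08 over the 45 genes (all clusters -0.05), with 27 above and 18 below 0. None passed the test in limma, against 0.347% of all clusters, and CDC25A, at -0.60 (SE 0.18, adjusted p = 0.431 in limma), was the 1 gene with an unadjusted p under 0.05, against 7.04% of all clusters. The sign of this median changed without control vehicle array 1 (-0.13), BTG1 shRNA vehicle array 1 (-0.014) or BTG1 shRNA prednisolone array 2 (-0.025).

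The arrays labelled BTG1 shRNA were then compared with the control arrays. With vehicle, 29 of 45 genes had higher means (39.3% of all clusters did) and 16 lower ones, with a median difference of 0.22 (all clusters -0.15). In limma 3 passed the test, all of them higher: ANLN, CDC25B and UBE2C. That is 6.67% of the 45, where 14.7% of all clusters passed, 8.46% of all in the upward direction. The groups did not overlap for 11 genes that were higher (24.4%, against 24.5% of all clusters) and for 1 that was lower, AURKB (2.22%, against 34.3%).

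With vehicle, ANLN measured 6.03 and 7.02 in control cells against 8.90 and 8.61 on the arrays labelled BTG1 shRNA. The difference of 2.24 (SE 0.37, 95% interval 1.37 to 3.11, adjusted p = 0.00603 in limma) is 4.71-fold. CDC25B, the phosphatase that starts CDK1 activation at the centrosome, measured 8.15 and 8.18 against 8.81 and 8.88, a difference of 0.68 (SE 0.16, adjusted p = 0.0294 in limma). UBE2C, the E2 enzyme of the anaphase-promoting complex, measured 6.99 and 6.96 against 7.72 and 7.60, a difference of 0.68 (SE 0.17, adjusted p = 0.0372 in limma). CDC25B and UBE2C agreed closely between the arrays of a group, and ANLN had a wide spread on the control side; no groups overlapped.

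Next in order, CDC25A was 0.92 (SE 0.26, adjusted p = 0.0573 in limma) and ECT2 1.80 (SE 0.58, adjusted p = 0.0836 in limma) above control with vehicle, and AURKB 0.66 (SE 0.21) below it; none of these passed. AURKB measured 9.96 and 9.63 on the control vehicle arrays against 9.23 and 9.04. The remaining core regulators, none of which passed, differed by 0.82 (AURKA), 0.71 (CCNB1), 0.39 (CDK1), 0.19 (BUB1B), 0.07 (FOXM1), -0.02 (PLK1), -0.52 (MKI67) and -0.62 (TOP2A). Without control vehicle array 1 the median was -0.15 with 16 genes above 0, and CDK1 gave -0.39, so the direction of the list with vehicle turned on that array; after quantile normalization 23 were above 0 with a median of 0.05. Without control vehicle array 2, 36 were above 0 with a median of 0.47. Without BTG1 shRNA vehicle array 1 or 2 the median was 0.26 and 0.15. The calls of CDC25B and UBE2C were lost in most alternatives. Among these were quantile normalization, the filter on rows under the 30th percentile, array weights and most single arrays left out. The ANLN call held in each of these settings. Over all alternatives the difference stayed between 0.50 and 0.72 for CDC25B and between 0.49 and 0.75 for UBE2C. By role the medians with vehicle were 0.37 for spindle organisation and cytokinesis, 0.36 for mitotic entry, 0.34 for CDC20, UBE2C and PTTG1, 0.25 for the centromere and kinetochore genes, 0.24 for the checkpoint, 0.14 for the kinesins and -0.11 for the passenger complex.

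With prednisolone the list stood on the other side. Of 45 genes, 40 had lower means on the arrays labelled BTG1 shRNA (42.1% of all clusters did) and 5 higher ones, with a median difference of -0.66 (all clusters 0.04). Both arrays labelled BTG1 shRNA lay below both control arrays for 33 genes (73.3%, against 21.5% of all clusters) and above both for 4 (8.89%, against 28.4%). In limma 7 genes passed the test (15.6%, against 17.5% of all clusters): CDC25A, CDC25B and UBE2C were higher (10.0% of all clusters were), and CDC25C, KIF20A, PRC1 and TOP2A lower (7.51%). After centring each array on its median, 1 gene passed, which was higher.

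Under prednisolone, UBE2C measured 6.85 and 6.77 in control cells against 7.45 and 7.69 on the arrays labelled BTG1 shRNA, a difference of 0.76 (SE 0.17, adjusted p = 0.0213 in limma). CDC25B measured 8.21 and 8.07 against 8.85 and 8.83, a difference of 0.70 (SE 0.16, adjusted p = 0.0226 in limma). CDC25A measured 6.68 and 7.25 against 7.86 and 8.32, a difference of 1.12 (SE 0.26, adjusted p = 0.0228 in limma), or 2.18-fold. All 3 were separated without overlap, and CDC25B and UBE2C by nearly the same amount as with vehicle.

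On the lower side, KIF20A measured 8.61 and 9.16 in control cells against 6.99 and 7.76, a difference of -1.51 (SE 0.36, 95% interval -2.35 to -0.67, adjusted p = 0.0251 in limma). TOP2A measured 10.32 and 10.43 against 8.99 and 9.13, a difference of -1.31 (SE 0.32, adjusted p = 0.0287 in limma). PRC1, which bundles the microtubules of the central spindle, measured 9.96 and 9.77 against 8.68 and 9.07, a difference of -0.99 (SE 0.25, adjusted p = 0.0323 in limma). CDC25C measured 6.77 and 7.57 against 5.08 and 6.19, a difference of -1.54 (SE 0.42, adjusted p = 0.0414 in limma). The 3 CDC25 phosphatases thus did not share a direction: CDC25A and CDC25B were higher and CDC25C lower. HMMR (-1.87, SE 0.55, adjusted p = 0.0572 in limma) and CENPE (-1.69, SE 0.51, adjusted p = 0.0606 in limma) had larger differences with larger errors and did not pass. Of the others always reported, CDK1 differed by -0.98, MKI67 by -0.93, BUB1B by -0.58, CCNB1 by -0.46, FOXM1 by -0.36, AURKB by -0.35, PLK1 by -0.28 and AURKA by 0.06.

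By role the medians with prednisolone were -0.99 for the centromere and kinetochore genes, -0.93 for spindle organisation and cytokinesis, -0.75 for the kinesins, -0.66 for the checkpoint, -0.50 for mitotic entry, -0.37 for the passenger complex and -0.01 for CDC20, UBE2C and PTTG1. The median of the 45 stayed between -0.92 and -0.45 with any array left out. The count of 7 did not hold: it changed with any array left out, and each such fit leaves 1 array in a group. It also changed in an alternative fit with the replicate number as a block. There 3 genes passed as higher and 19 as lower in limma. That share of the 45 (48.9%) lay above that of all clusters (24.2%), unlike the share without the block.

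Averaged over both treatments, 8 genes passed in limma (17.8%, against 23.8% of all clusters), and the list had a median of -0.25 (all clusters -0.08), with 34 of 45 below 0, against 60.1%. Of the 8, 4 were higher (14.1% of all clusters were) and 4 lower (9.74%). Higher on the arrays labelled BTG1 shRNA were ANLN by 1.46 (SE 0.26, adjusted p = 0.0054 in limma), CDC25A by 1.02 (SE 0.19), UBE2C by 0.72 (SE 0.12) and CDC25B by 0.69 (SE 0.12). For these 4 genes every array labelled BTG1 shRNA lay above every control array (8.89% of the 45, against 14.2% of all clusters). ANLN, for example, lay between 6.03 and 7.73 on the 4 control arrays and between 7.85 and 8.90 on the other 4. These 4 calls held in 15 of 15 alternatives. Lower were KIF20A by 0.98 (SE 0.26, adjusted p = 0.0280 in limma), TOP2A by 0.96 (SE 0.23), PRC1 by 0.63 (SE 0.18) and AURKB by 0.51 (SE 0.15), each with overlap between some arrays of the 2 sides, and each lost its call in several alternatives. After centring, 4 higher and 1 lower genes passed, and after quantile normalization 4 higher and 6 lower.

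**Figure D4:**
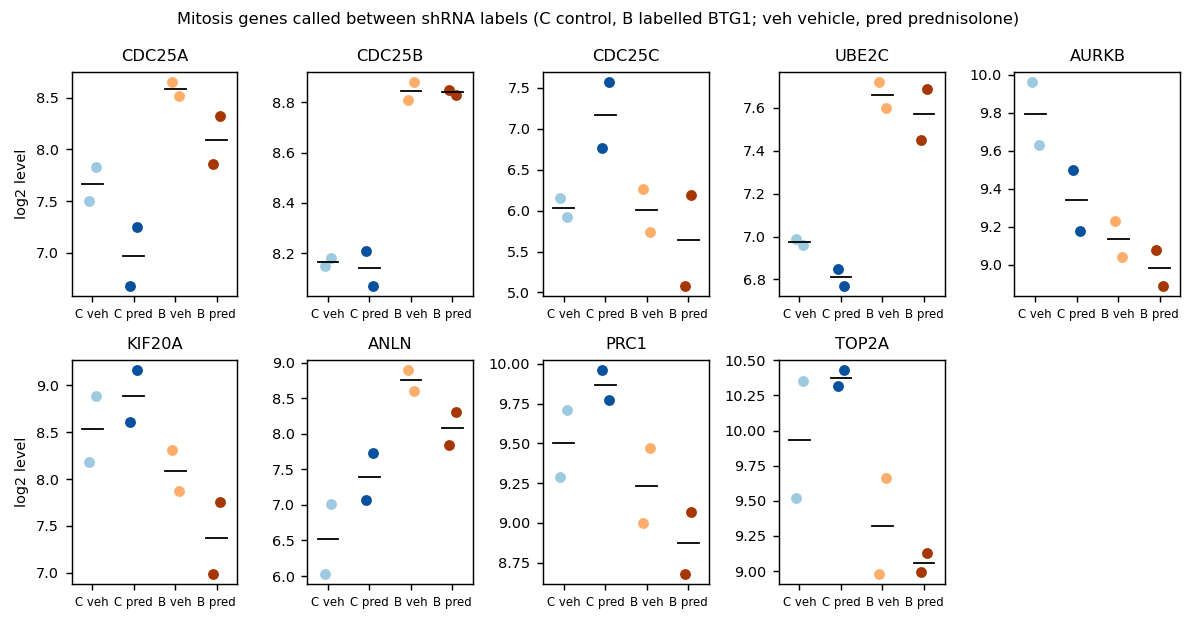
Values (log2) on the 8 arrays of the 9 genes that passed the test in any comparison, 1 panel a gene, with points for arrays and a line at each group mean. In CDC25A, CDC25B, UBE2C and ANLN the 4 arrays labelled BTG1 shRNA lie above the 4 control arrays, while in CDC25C, KIF20A, PRC1 and TOP2A the gap is widest with prednisolone.

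Because these genes are known to share promoter elements, their promoters were searched for the CCAAT box (CCAAT, or ATTGG on the other strand) and for the CHR in its TTTGAA and TTCGAA forms on both strands (TTTGAA reads TTCAAA on the other strand). The windows were 300 bases, 250 before to 50 after the RefSeq start on GRCh38.p14. Windows were present for 38 of the 45 genes (50 windows), and AURKA, TPX2, FOXM1, BUB3, TTK, UBE2C and BIRC5 had none in the table. A CHR match was found in 64.0% of the windows of these genes, in 16.4% of all 35116 windows and in 4.35% of the 46 windows of DNA replication genes. A CCAAT match was found in 74.0%, 34.6% and 58.7%, and both in 52.0%, 6.38% and 4.35%. A match is a run of letters and not a tested site.

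The promoters shown are those of CDC25B, ANLN, CDC25A and TOP2A, which passed the test in most comparisons and had a window; KIF20A and PRC1 passed in as many as ANLN, CDC25A and TOP2A, and the tie was settled by the smaller p. Capitals mark matches to the 2 motifs, and each sequence runs 5′ to 3′ on the strand of its gene. CDC25B (chr20:3796060-3796359, plus strand, the window with most matches of 4) holds 1 match of each. ANLN (chr7:36389612-36389911, plus strand) holds 2 adjoining CHR matches and no CCAAT. CDC25A (chr3:48188368-48188667, minus strand) holds 2 CCAAT matches and no CHR, and TOP2A (chr17:40417847-40418146, minus strand) holds 4 CCAAT and 2 CHR matches.
CDC25B: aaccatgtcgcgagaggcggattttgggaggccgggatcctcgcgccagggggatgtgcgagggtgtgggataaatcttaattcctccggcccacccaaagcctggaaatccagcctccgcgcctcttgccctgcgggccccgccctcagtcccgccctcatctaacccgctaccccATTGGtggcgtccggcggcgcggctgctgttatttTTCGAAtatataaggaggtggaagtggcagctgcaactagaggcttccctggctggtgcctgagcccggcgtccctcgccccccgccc
ANLN: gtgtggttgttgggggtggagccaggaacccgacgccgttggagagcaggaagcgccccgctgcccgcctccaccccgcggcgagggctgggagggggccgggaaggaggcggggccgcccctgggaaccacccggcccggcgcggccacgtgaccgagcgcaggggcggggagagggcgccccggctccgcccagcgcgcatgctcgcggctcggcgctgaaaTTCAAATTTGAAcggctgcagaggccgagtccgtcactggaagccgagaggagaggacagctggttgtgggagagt
CDC25A: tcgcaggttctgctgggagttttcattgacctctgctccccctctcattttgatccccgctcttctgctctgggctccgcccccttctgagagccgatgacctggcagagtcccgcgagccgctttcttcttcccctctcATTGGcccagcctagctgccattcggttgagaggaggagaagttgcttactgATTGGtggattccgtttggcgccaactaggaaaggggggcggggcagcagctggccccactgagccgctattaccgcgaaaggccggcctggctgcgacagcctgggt
TOP2A: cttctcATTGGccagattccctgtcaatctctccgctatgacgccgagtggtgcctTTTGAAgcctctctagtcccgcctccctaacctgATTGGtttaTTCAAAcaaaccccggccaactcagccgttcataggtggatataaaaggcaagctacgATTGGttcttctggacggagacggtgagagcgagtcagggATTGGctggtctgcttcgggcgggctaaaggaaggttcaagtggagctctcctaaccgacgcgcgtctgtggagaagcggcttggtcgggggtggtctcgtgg
The genes that were higher on the arrays labelled BTG1 shRNA thus differ among themselves in these letters, as do those that were lower: no CHR match was found in the windows of CDC25A, AURKB or KIF20A, while TOP2A has both motifs. CCNA2, CCNB1, NEK2, PTTG1, CENPE and KIF2C also had no CHR match in these windows.

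Other genes of cell division were read beside the 45. Their calls against control stand beside shares over all clusters of 8.46% higher and 6.21% lower with vehicle, and 10.0% higher and 7.51% lower with prednisolone. Of 20 genes of chromosome condensation and cohesion, 18 had a positive difference with prednisolone in control cells (median 0.45) and 19 a negative one on the arrays labelled BTG1 shRNA (median -0.22), and none passed the test in limma in either. Against control, 4 of 20 were lower with prednisolone (20.0%): the cohesin subunit SMC1A by 1.33 (SE 0.23, adjusted p = 0.00664 in limma), and the condensin subunits NCAPD2 by 1.12, NCAPG by 1.31 and NCAPG2 by 1.45; the rows of NCAPD2 and NCAPG also carry other symbols. Of 29 other kinetochore genes, 22 were positive with prednisolone in control cells (median 0.52) and 25 negative on the arrays labelled BTG1 shRNA (median -0.23). Of these, 3 were lower than control with prednisolone (10.3%), among them CENPC, a centromere scaffold, by 1.48 (SE 0.23) and KNTC1, a checkpoint protein, by 1.38.

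Of 33 further spindle, kinesin and centrosome genes, 26 were positive with prednisolone in control cells (median 0.30) and 29 negative on the arrays labelled BTG1 shRNA (median -0.27). Against control with prednisolone 2 passed upward and 2 downward (6.06% each): TUBG1, the gamma-tubulin of microtubule nucleation, was higher by 1.44 and KIF3B by 0.90, and the midbody kinase CIT was lower by 1.16 and DEPDC1 by 2.51. The 13 subunits and inhibitors of the anaphase-promoting complex had medians near 0 (-0.06 in control cells and -0.17 on the arrays labelled BTG1 shRNA), and none passed in limma in these contrasts.

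DNA replication genes were nearly evenly divided in control cells: 19 of 39 were positive with prednisolone, with a median of -0.02, while 33 were negative on the arrays labelled BTG1 shRNA, with a median of -0.27. Against control with vehicle 28 of 39 were higher (median 0.29), and 3 passed upward (7.69%, against 8.46% of all clusters; PRIM2 by 1.82, GINS4 by 0.89 and CDC45 by 0.70). The thymidine kinase TK1 passed downward, by 1.13 (1 gene, 2.56%, against 6.21%). With prednisolone the median was 0.03, FEN1 (row shared with FADS2) was higher by 0.81 and TK1 lower by 1.22 (2.56% each way).

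The regulators of this programme were read as well. Of 21 genes of the MuvB, DREAM and E2F group, 12 were positive with prednisolone in control cells (median 0.14) and 19 negative on the arrays labelled BTG1 shRNA (median -0.22), with none passing in limma. Against control, 1 passed as higher and 1 as lower with vehicle (4.76% each, against 8.46% and 6.21% of all clusters). With prednisolone 2 were higher and 1 lower (9.52% and 4.76%, against 10.0% and 7.51%). TFDP2, a partner of E2F factors, was higher by 3.17 (SE 0.29, adjusted p = 0.000294 in limma) with vehicle and by 1.85 with prednisolone. E2F2 was lower by 0.87 and 0.69, and E2F1 was higher by 0.74 with prednisolone. The lowest difference of the list with prednisolone was -1.26, for RBL1.

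Among 16 genes that hold cells before mitosis or otherwise restrain division, 5 passed as lower with vehicle on the arrays labelled BTG1 shRNA (31.2%, against 6.21% of all clusters) and 6 with prednisolone (37.5%, against 7.51%), and none as higher; BTG1 is a member of this list. CDKN1A, the CDK inhibitor p21, measured 7.61 and 7.42 with vehicle and 7.73 and 7.63 with prednisolone in control cells, 5.27 and 5.03 on the vehicle arrays labelled BTG1 shRNA and 5.98 and 5.46 with prednisolone. All 4 arrays labelled BTG1 shRNA lay below all 4 control arrays, by 2.36 (SE 0.22, adjusted p = 0.000353 in limma) with vehicle and 1.96 (SE 0.22) with prednisolone. PPP2R5C, a phosphatase subunit, was lower by 1.80 and 2.03, GADD45B, a stress-response gene, by 1.16 and 1.91, and TOB1, a relative of BTG1, by 1.48 and 0.81. With prednisolone in control cells only BTG1, on its shared row, passed in this list, higher by 1.26 (SE 0.20, adjusted p = 0.0288 in limma).

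**Figure D5:**
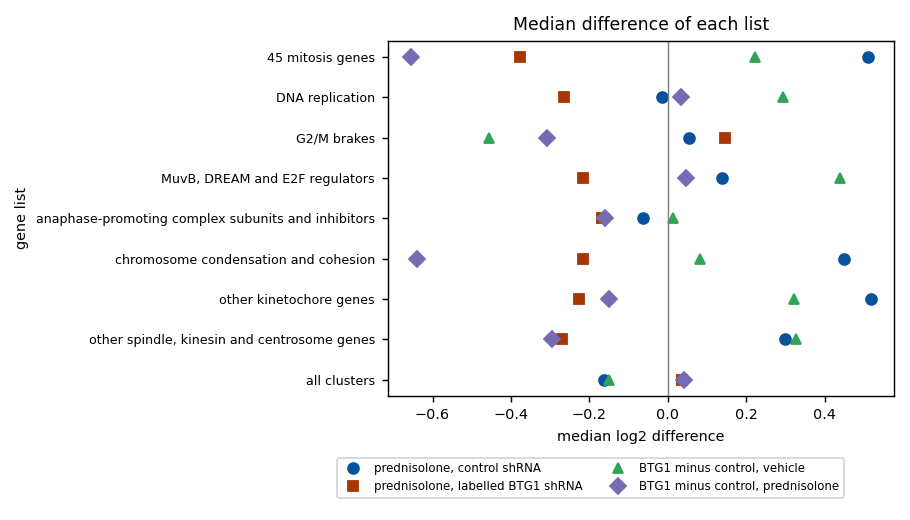
Median log2 difference of each gene list and of all clusters in the prednisolone comparison of each background and in the comparison of arrays labelled BTG1 shRNA with control under each treatment. The lists of condensation, kinetochore and spindle genes lie on the same side of 0 as the 45 genes in both prednisolone comparisons (0.30 to 0.52 in control cells, 0.51 for the 45), while DNA replication genes lie at -0.02 in control cells.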

How the data were processed

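Total RNA of 8 samples was read on Affymetrix Human Exon arrays over core meta-probe sets built on hg18, per the labels, and per the submitters' processing notes RMA and Partek were used (no versions stated). The table as deposited contains log2 values whose decimal points were mostly lost (other than in 153 of 143048 values). Points were restored behind digit 1, or behind digit 2 for a leading 1, and 0 columns were left out. The correlation between arrays was 0.446 to 0.587 as deposited and 0.872 to 0.995 after this, and 44 of the 360 values of the 45 genes start with 1. The unit so differed from the plain log2 table that was planned for.

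limma 3.58.1 in R 4.3.3 fitted 4 group means to all 8 arrays (4 residual and 3.51 prior degrees of freedom) for 17881 clusters, with no low-value filter, 7 contrasts, Benjamini-Hochberg adjustment over all clusters and a threshold of 0.05. The fit was tested on simulated data. Values starting with 1, other normalizations, a filter, rows averaged per symbol, a replicate block, array weights and each array left out were tried. Genes were named as follows: 9 core genes always, every gene of the 45 that passed, and otherwise the 4 with the smallest p, with up to 4 by p for each other list. The members and lists were chosen with earlier results of these data known. The platform annotation gave 1 symbol to 14432 clusters, several to 2408 and none to 1041. Promoter sequences come from RefSeq (GRCh38.p14).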

Additional observations from a re-analysis of the deposited data

How the results depend on the processing

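Medians of the 45 genes kept their sign under quantile normalization, centring, the stricter decimal rule and averaging rows in all 7 comparisons. The filter on rows under the 30th percentile kept all 45 genes, and the array weights were equal within each pair of arrays. The filter, the block and the weights therefore left every fitted difference as it was. They could change errors and calls but could not test the medians. Scaling moved the median of all clusters: with prednisolone in control cells it was -0.16 as deposited, -0.05 after quantile normalization and -0.04 after centring, and the 45 had 0.51, 0.33 and 0.64. With 1 array left out, medians ran from 0.057 to 0.80 for prednisolone in control cells, from -0.60 to -0.16 for prednisolone on the arrays labelled BTG1 shRNA, from -1.27 to -0.45 for the difference, from -0.13 to 0.20 for averaged prednisolone, from -0.15 to 0.47 for the arrays labelled BTG1 shRNA with vehicle, from -0.92 to -0.45 with prednisolone and from -0.43 to -0.09 averaged. Counts of genes that passed ran from 0 to 2, 0 to 0, 0 to 0, 0 to 0, 1 to 11, 1 to 15 and 4 to 11 in that order. With vehicle 1 gene passed after quantile normalization and 1 with array weights. With prednisolone 1 passed after centring, 11 above the 30th percentile and 14 with array weights. Averaged, 5 passed after centring. The cause of these changes was not tested.

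Replicate numbers are shared between groups, and deviations of equal-numbered arrays correlated at 0.561, 0.425, 0.00722, 0.593, 0.415 and 0.263 over the 6 pairs of groups, 5 of them above 0.1 and 1 near 0. The rule used here takes the numbers to pair the arrays only where every correlation exceeds 0.1, so the block was kept as an alternative, although most of these values are positive. With the replicate number as a block, 8 genes passed with vehicle between the arrays labelled BTG1 shRNA and control (17.8%, against 25.5% of all clusters), 22 with prednisolone (3 higher and 19 lower; 48.9%, against 24.2%) and 13 averaged (28.9%, against 30.5%). With prednisolone in control cells 1 passed, HMMR (2.22%, against 4.22%). The share with prednisolone thus lay above that of all clusters with the block and slightly below it without. Of the 315 differences of the 45 genes over 7 contrasts, 99 changed sign under at least 1 setting, none of them among the 18 that passed the test; control vehicle array 1 left out turned 44. Averaging all rows of a symbol moved MAD2L1 with prednisolone from -0.84 to 0.16 and AURKA averaged from 0.44 to -0.061, so the rows of these genes disagree. For BIRC5 with prednisolone, the row taken had means of 8.58 on the arrays labelled BTG1 shRNA and 8.96 on control arrays. With its rows averaged the difference was -0.62, and BIRC5 then passed the test (adjusted p = 0.048 in limma). With 2 arrays a group, the SE of a difference ran from 0.16 to 0.73 over the 45 genes, which limits what could be detected.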
